A study of Mus musculus and Rattus norvegicus with 30 samples.

Results

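Effector genes of axon regeneration, which sensory neurons are known to switch on when their axons are cut or which are used to follow axon regrowth, were examined in dorsal root ganglia (DRG) after nerve injury. They were Gap43, Basp1, Stmn4, Sprr1a, Flrt3, Ecel1, Gpr151, Arg1, Anxa1 and Vgf, taken by gene symbol, and all 10 were found, once each, among the 54315 features of the mouse count table. Of the 39281 features of the rat table, 9 carried one of these symbols, 5 with counts and 4 listed at 0. Mice were adult BALB/c and B10.D2 animals of both sexes, with 1 animal a library (pooled L3 and L4 ganglia), taken 28 days after spared nerve injury (SNI) or sham surgery. In SNI the surgeon cuts the common peroneal and sural nerves and spares the tibial nerve, so that L3 and L4 ganglia hold both cut and uncut neurons. BALB/c gave 6 sham and 4 SNI libraries and B10.D2 gave 5 of each kind, all named below by its animal number. Rats were male Wistar animals, with the L5 ganglia of 3 rats pooled in each library, taken 21 days after the left L5 spinal nerve had been tied and transected (SNT, 4 libraries) or after sham surgery (4 libraries). The labels name no transgene and no drug. A pair of further mice in the labels, B10.D2 sham 59 and BALB/c SNI 66, were not analysed here.

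A sensory neuron whose peripheral axon is cut can regrow it, and does so by starting a programme of gene expression in its cell body in the ganglion. Transcription factors such as ATF3 and JUN turn on late-acting effector genes, whose products rebuild the growth cone, reorganise microtubules, alter adhesion at the cell surface or are released as signals. GAP43 and BASP1 are phosphoproteins of the inner membrane of the growth cone, STMN4 is a stathmin that binds tubulin, SPRR1A is a small proline-rich protein first known from skin that promotes axon outgrowth, FLRT3 is an adhesion protein that binds latrophilins and UNC5 receptors, ECEL1 is a membrane endopeptidase-like protein known as damage-induced neuronal endopeptidase, GPR151 is an orphan G protein-coupled receptor, ARG1 turns arginine into ornithine on the way to polyamines, ANXA1 is a phospholipid-binding protein that signals through formyl peptide receptors, and VGF is the precursor of several secreted neuropeptides.

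The mouse libraries held 29989963 to 41881331 counts and the rat libraries 11954612 to 17887909, so that 3 counts were worth 0.0716 to 0.1 CPM (counts scaled to the size of the library) in mouse and 0.168 to 0.251 CPM in rat. Markers of sensory neurons were present in every mouse library, with all 8 listed neuron markers counted and a summed level of 5830 to 6970 CPM. Rat sham library 4 and rat SNT library 1 stood apart from their groups. On the first principal component of the rat libraries (71.5% of the variance) sham 4 lay at -6.33 and SNT 1 at 1.09, where the remaining sham libraries spanned -48.7 to -35.7 and the remaining SNT ones 30.6 to 49.9. Rat results are therefore given with and without both. Each was the library of its group nearest the other group on that component. Leaving both out therefore widens the difference between sham and SNT by the choice itself.

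Compared per length of transcript, as RPKM (CPM divided by the kilobases of annotated exon), the 10 genes differed widely in level in uninjured ganglia. Gap43 was the highest in BALB/c sham at 76.1 ± 7.84 RPKM (SD, n = 6), followed by Basp1 at 41.1 ± 4.29. Vgf (9.12 ± 2.18), Anxa1 (7.52 ± 2.81), Flrt3 (4.80 ± 0.576) and Stmn4 (3.48 ± 0.398) came next, and neighbours among Vgf, Anxa1 and Flrt3 lay within 1 SD of each other. Sprr1a (1.02 ± 0.778), Gpr151 (0.905 ± 0.276) and Ecel1 (0.588 ± 0.434) did not differ in level beyond their spread, and Arg1 was the lowest at 0.104 ± 0.0626. After SNI the order in BALB/c was Gap43 at 133 ± 3.91 RPKM (SD, n = 4), Basp1 at 46.3 ± 7.27 and then Sprr1a at 30.4 ± 6.93, which had stood at rank 7 in sham and stood at rank 3 here. The same 3 genes led in B10.D2 SNI, at 117 ± 12.9, 47.9 ± 4.12 and 20.5 ± 7.81 RPKM (SD, n = 5). Arg1 stayed the lowest in both strains, at 0.163 ± 0.0272 and 0.292 ± 0.0775 RPKM after SNI.

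After SNI 7 of the 10 genes rose in BALB/c mice and 7 in B10.D2 mice, tested with edgeR's quasi-likelihood test and called at a Benjamini-Hochberg adjusted p under 0.05 over all 24685 features tested. Gap43, Stmn4, Sprr1a, Flrt3, Ecel1 and Gpr151 rose in both strains, Anxa1 passed in BALB/c alone and Arg1 in B10.D2 alone, and Basp1 and Vgf passed in neither. None fell. Over all features tested, 4.82% were called higher (BALB/c) and 2.1% (B10.D2), and 9.69% and 4.58% were called in either direction. The 10 genes had a median log2 fold change of 1.40 (BALB/c) and 1.15 (B10.D2), beside medians of 0.0033 and 0.0076 over all features. In 6 genes of each strain every SNI library lay above every sham library, as did 4.3% of all features (BALB/c) and 2.41% (B10.D2). By size of the log2 fold change Sprr1a was the 5th of 24685 features in BALB/c and the 2nd in B10.D2, and by p-value Gpr151 was the 6th and the 1st. In whole ganglia more RNA per neuron and a larger share of the cells that make it cannot be told apart. Summed neuron markers covered 5830 to 6620 CPM (sham) and 5830 to 6450 CPM (SNI) in BALB/c mice, and 6420 to 6970 CPM (sham) and 5890 to 6960 CPM (SNI) in B10.D2 mice, with 1 of the 8 neuron markers called lower in each strain and none higher.

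**Figure D1:**
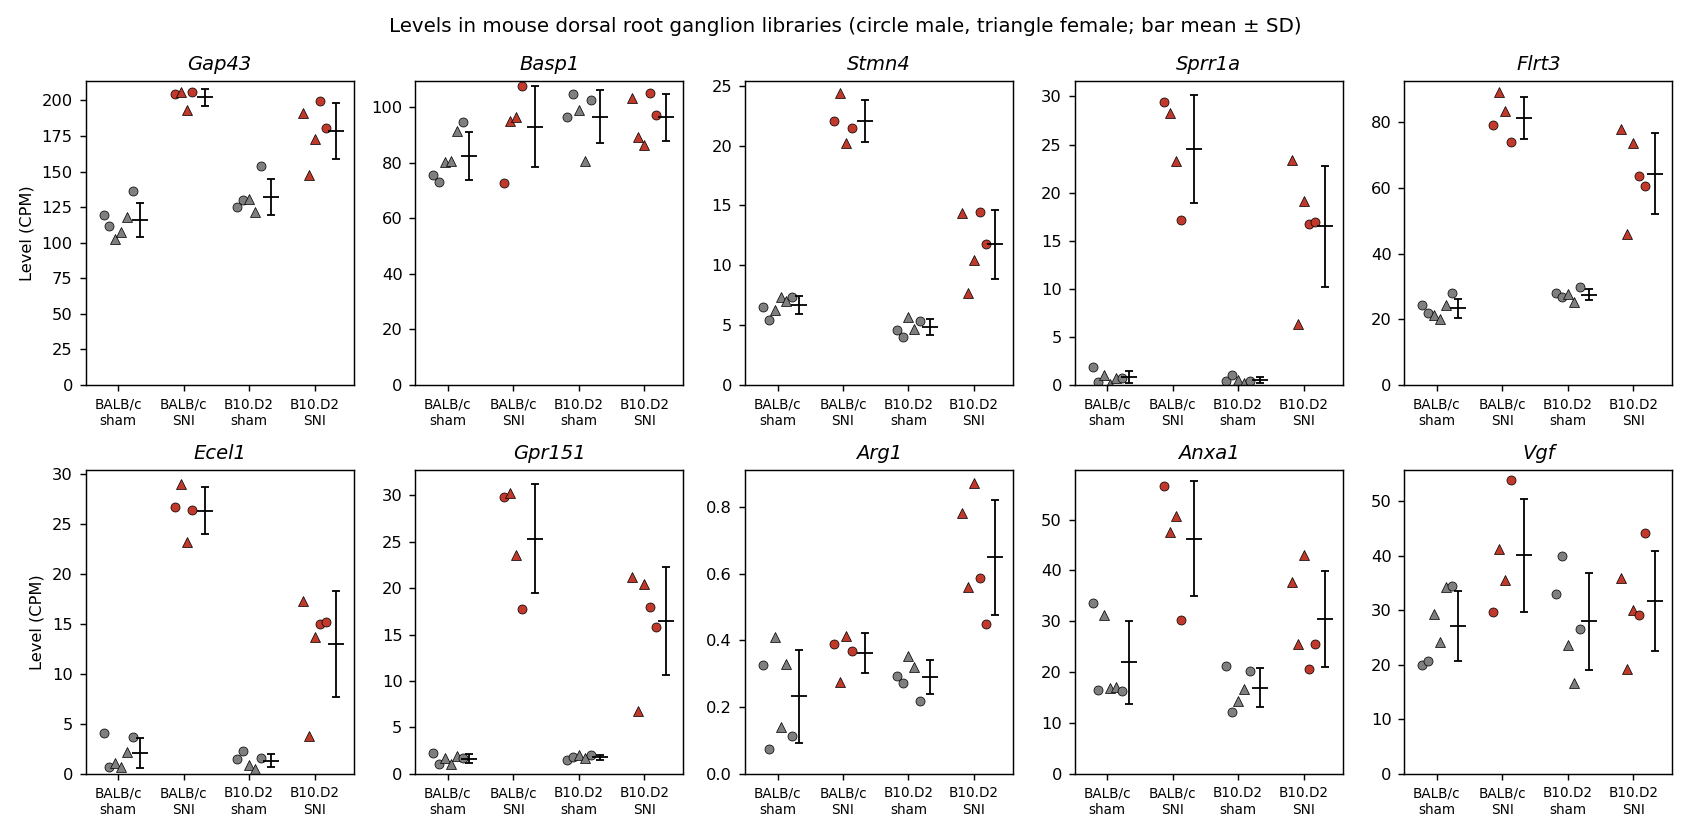
Level of each gene in CPM (linear axis from 0, own scale per gene) in the 20 mouse libraries by group, with circles for males, triangles for females and a bar for mean ± SD. The SNI points of Sprr1a, Flrt3, Stmn4, Ecel1 and Gpr151 lie above all sham points of their strain, whereas those of Basp1 and Vgf overlap with sham in both strains.

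**Figure D2:**
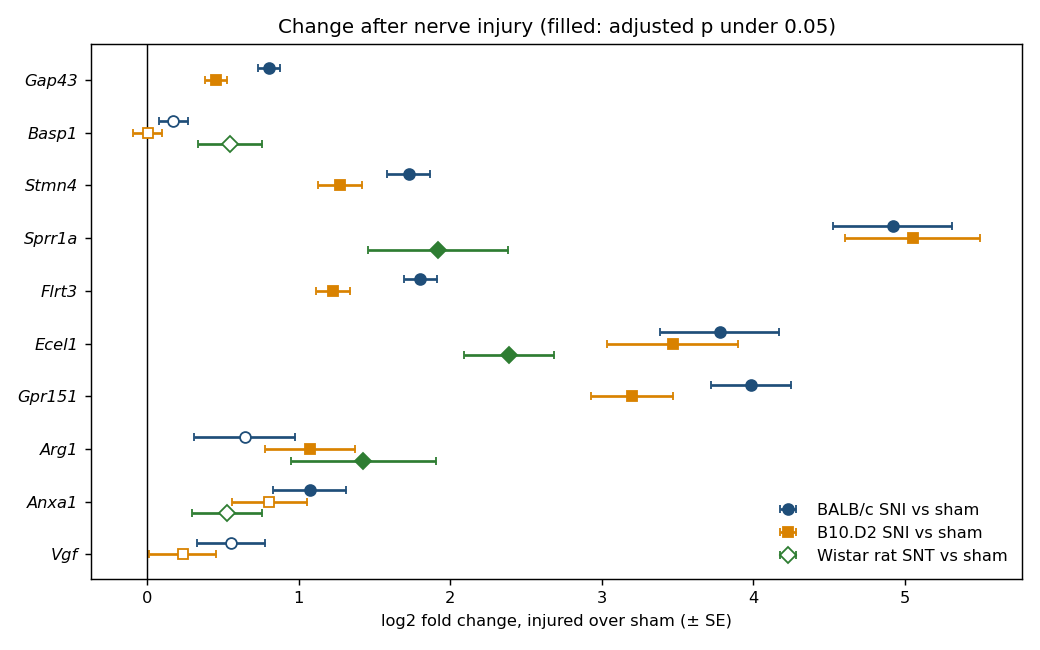
Log2 fold change of injured over sham ± SE for each gene in BALB/c SNI, B10.D2 SNI and Wistar rat SNT, with filled symbols at an adjusted p under 0.05 and open symbols otherwise. Sprr1a, Ecel1 and Gpr151 changed by 3.20 to 5.05 in mouse and Basp1 by 0.17 or less, and the 5 genes counted in rat range from 0.53 to 2.39.

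The growth cone protein Gap43 (chr16:42248442-42340651, minus strand, mm10) was already abundant in sham ganglia and rose moderately, to 1.74 times the sham mean in BALB/c and 1.35 times in B10.D2. In BALB/c sham it ranged from 102 to 136 CPM around a median of 115, and the SNI libraries 49, 64, 65 and 70 held 204, 206, 193 and 206 CPM. All 4 lay above every sham library, with a spread of only 5.96 CPM (SD, n = 4). The log2 fold change was 0.81 ± 0.0706 (SE; adjusted p = 2.16e-07). In B10.D2 the sham libraries 58, 60, 67, 77 and 88 held 125, 130, 130, 121 and 154 CPM and the SNI libraries 69, 76, 78, 89 and 90 held 191, 148, 173, 199 and 180.5 CPM. All SNI libraries but 76 exceeded every sham library, and 76 lay just under sham 88. The log2 fold change in B10.D2 was 0.46 ± 0.0708 (adjusted p = 0.000418).

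Basp1 (chr15:25363277-25413764, minus strand), the second growth cone phosphoprotein of the group, gave no call in either strain. Its BALB/c sham libraries ranged from 73.0 to 94.6 CPM with a median of 80.4, and its SNI libraries 49, 64, 65 and 70 held 72.8, 95.1, 96.6 and 108 CPM. SNI libraries 64, 65 and 70 lay above all sham libraries and library 49 lay below all of them, giving a log2 fold change of 0.17 ± 0.0960 (adjusted p = 0.291). Leaving out library 49 made it 0.29 (adjusted p = 0.0430), so its side of the threshold in BALB/c rests on that animal. In B10.D2 the group means were 96.6 ± 9.52 CPM in sham and 96.3 ± 8.28 CPM in SNI (SD, n = 5 each), with a log2 fold change of 0.0037 ± 0.0952 (adjusted p = 0.992).

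Stmn4 (chr14:66344296-66361680, plus strand), a stathmin found in neurons, rose in both strains without overlap. BALB/c sham libraries ranged from 5.41 to 7.39 CPM (median 6.80), and SNI libraries 49, 64, 65 and 70 held 22.05, 24.4, 20.2 and 21.5 CPM. Every SNI library was at least 2.74 times the highest sham library, and the log2 fold change was 1.73 ± 0.139 (adjusted p = 8.52e-08). In B10.D2 the sham libraries 58, 60, 67, 77 and 88 held 4.56, 3.98, 5.68, 4.66 and 5.38 CPM and the SNI libraries 69, 76, 78, 89 and 90 held 14.4, 7.66, 10.4, 14.4 and 11.8 CPM. The lowest of these, library 76, was still 1.35 times the highest sham library, and the log2 fold change was 1.27 ± 0.145 (adjusted p = 1.89e-05).

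Sprr1a (chr3:92483952-92485895, minus strand), the small proline-rich protein that promotes neurite outgrowth, gave the largest log2 fold change of the 10 genes in both strains. BALB/c sham libraries held 0.140 to 1.91 CPM with a median of 0.773, or 5 to 64 counts, and SNI libraries 49, 64, 65 and 70 held 29.4, 28.3, 23.3 and 17.2 CPM. The lowest SNI library was 8.996 times the highest sham library. In B10.D2 sham libraries 58, 60, 67, 77 and 88 held 0.468, 0.995, 0.489, 0.213 and 0.410 CPM, and SNI libraries 69, 76, 78, 89 and 90 held 23.4, 6.30, 19.2, 16.7 and 16.9 CPM. Again no libraries overlapped, although library 76 held less than any other SNI library of either strain. The log2 fold changes were 4.92 ± 0.394 (adjusted p = 8.5e-08) in BALB/c and 5.05 ± 0.446 (adjusted p = 2.79e-06) in B10.D2. Markers of epidermis, the tissue in which this family is best known, were low, with summed levels of 1.01 to 1.68 CPM (sham) and 1.35 to 1.84 CPM (SNI) in BALB/c mice and 1.55 to 2.56 CPM (sham) and 1.26 to 2.01 CPM (SNI) in B10.D2 mice. Of the 6 listed, 5 had counts and Ivl was at 0 in every mouse library. The part of such cells in the values of Sprr1a was not tested.

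Promoter sequences were at hand from RefSeq (GRCm38.p6) for 5 of the 10 genes, Sprr1a, Flrt3, Ecel1, Basp1 and Anxa1, each covering 250 bases before and 50 bases after the start of transcription. They were searched on both strands for AP-1 (TGANTCA), the cAMP response element core (TGACGT), STAT (TTCNNNGAA), C/EBP (TTGCNNAA), SOX (CATTGT) and TATA box (TATAAA) letters, factors of which several are known from injured neurons. The stretches before the annotated gene are printed 5′ to 3′ on the strand of the gene for the gene that rose most, for the adhesion gene with no overlap between SNI and sham and for the growth cone gene that gave no call, with every match in capitals:
Sprr1a, chr3:92485896-92486131: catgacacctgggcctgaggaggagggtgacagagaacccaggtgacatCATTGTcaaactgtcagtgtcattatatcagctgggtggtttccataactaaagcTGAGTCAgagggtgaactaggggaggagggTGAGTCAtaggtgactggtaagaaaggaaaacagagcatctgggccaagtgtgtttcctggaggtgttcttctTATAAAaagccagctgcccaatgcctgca
Flrt3, chr2:140671477-140671726: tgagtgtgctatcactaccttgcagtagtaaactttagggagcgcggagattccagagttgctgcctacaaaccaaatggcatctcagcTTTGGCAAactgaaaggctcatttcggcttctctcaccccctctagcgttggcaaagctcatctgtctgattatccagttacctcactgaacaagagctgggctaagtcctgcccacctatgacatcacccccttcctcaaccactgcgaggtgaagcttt
Basp1, chr15:25413765-25414014: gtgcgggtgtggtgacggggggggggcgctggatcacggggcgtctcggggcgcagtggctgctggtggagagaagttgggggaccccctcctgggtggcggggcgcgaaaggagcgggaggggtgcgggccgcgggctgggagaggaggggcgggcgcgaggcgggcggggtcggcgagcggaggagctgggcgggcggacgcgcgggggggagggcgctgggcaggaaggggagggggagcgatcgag
Positions are counted back from the RefSeq start of transcription, with -1 for the base before it. For Sprr1a that start lies within the annotated gene, so 236 of the 250 bases before it are printed. The remaining bases, nearest the start, are not shown. Sprr1a held 2 AP-1 matches, both reading TGAGTCA, at -146 to -140 and -116 to -110. It also held a SOX match at -201 to -196 and a TATA match at -43 to -38. No motif overlapped another. An AP-1 match was present in 7.81% of the 32851 promoters of the table, and 2 or more in 0.46%. Flrt3 held 1 C/EBP match at -161 to -154, as did Anxa1 at -143 to -136, and a C/EBP match was present in 10.8% of all promoters. Anxa1 also held a TATA match at -32 to -27 (13.6% of all promoters). Ecel1 and Basp1 held none of the 6 motifs. No member promoter held the cAMP response element core (7.51% of all promoters) or the STAT letters (8.3%), and SOX letters were present in 12.6% of all promoters. These are matches of letters and not measured binding sites.

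Flrt3 (chr2:140650914-140671469, minus strand), an adhesion and guidance protein of the neuronal surface, lies within the large gene Macrod2 on the opposite strand, and the counting used strand. Sham libraries of BALB/c ranged from 20.2 to 28 CPM (median 23.1), and SNI libraries 49, 64, 65 and 70 held 79.1, 89.1, 83.3 and 73.9 CPM. In B10.D2 the sham libraries 58, 60, 67, 77 and 88 held 27.9, 26.7, 27.8, 25.3 and 29.98 CPM and the SNI libraries 69, 76, 78, 89 and 90 held 77.9, 46.1, 73.6, 63.6 and 60.6 CPM. The SD in sham was 12% (BALB/c) and 6.28% (B10.D2) of the mean, the latter the lowest among the 10 genes in that group, and no SNI library overlapped with sham. The log2 fold change was 1.80 ± 0.109 (adjusted p = 1.98e-09) in BALB/c and 1.23 ± 0.111 (adjusted p = 2.79e-06) in B10.D2. Macrod2 itself was lower after SNI, at 54.1 ± 2.19 CPM against 67.6 ± 3.50 CPM in BALB/c and 57.9 ± 3.75 CPM against 70.4 ± 3.05 CPM in B10.D2.

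Ecel1 (chr1:87147655-87156521, minus strand), the damage-induced neuronal endopeptidase, was low in sham ganglia and rose in both strains. BALB/c sham libraries varied from 0.677 to 4.11 CPM with a median of 1.61, whereas SNI libraries 49, 64, 65 and 70 held 26.7, 29.0, 23.2 and 26.4 CPM. The sham spread was wide (SD 73.8% of the mean, n = 6) and the SNI spread narrow (8.99%, n = 4). B10.D2 sham libraries 58, 60, 67, 77 and 88 held 1.43, 2.23, 0.897, 0.479 and 1.54 CPM and SNI libraries 69, 76, 78, 89 and 90 held 17.3, 3.78, 13.7, 15.0 and 15.2 CPM. Library 76 lay 1.69 times above the highest sham library and far below the other SNI libraries. Fitted log2 fold changes were 3.78 ± 0.392 (adjusted p = 1.61e-06) in BALB/c and 3.47 ± 0.431 (adjusted p = 4.83e-05) in B10.D2.

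Gpr151, an orphan receptor on chromosome 18, showed the second largest change in BALB/c. Its BALB/c sham libraries held 1.004 to 2.23 CPM (median 1.70) and its SNI libraries 49, 64, 65 and 70 held 29.8, 30.2, 23.5 and 17.8 CPM. In B10.D2 it was at 1.43, 1.75, 1.98, 1.68 and 2.004 CPM in sham libraries 58, 60, 67, 77 and 88 and at 21.2, 6.71, 20.4, 18.0 and 15.8 CPM in SNI libraries 69, 76, 78, 89 and 90. The lowest SNI library was 7.94 times the highest sham library in BALB/c and 3.35 times in B10.D2. Log2 fold changes were 3.99 ± 0.262 (adjusted p = 5.67e-09) and 3.20 ± 0.270 (adjusted p = 2.79e-06).

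Arg1 (chr10:24915221-24927484, minus strand), the arginase of the urea cycle that also feeds polyamine synthesis, was near the limit of detection, with 3 to 17 counts in any BALB/c library and 9 to 36 in any B10.D2 library. BALB/c sham libraries ranged from 0.0752 to 0.410 CPM (median 0.234), and SNI libraries 49, 64, 65 and 70 held 0.389, 0.276, 0.415 and 0.369 CPM. These overlapped, and the log2 fold change of 0.65 ± 0.332 gave no call (adjusted p = 0.252). In B10.D2 all 5 SNI libraries (0.782, 0.562, 0.873, 0.589 and 0.448 CPM in 69, 76, 78, 89 and 90) lay above the sham libraries (0.292, 0.271, 0.353, 0.319 and 0.217 CPM in 58, 60, 67, 77 and 88). The call there was narrow, with a log2 fold change of 1.07 ± 0.298 (adjusted p = 0.0420), and it was lost when any of 11 single libraries was left out, with a log2 fold change of 0.99 to 1.15 over all 20 such fits. Those 11 were SNI 69, 78, 89 and 90 and sham 58, 60, 67, 77 and 88 of B10.D2, and SNI 65 and 70 of BALB/c.

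Anxa1 (chr19:20373428-20390944, minus strand) is made by many cell types as well as by sensory neurons. BALB/c sham libraries ranged from 16.3 to 33.6 CPM with a median of 16.9, with libraries 50 and 55 at 33.6 and 31.2 CPM and the remaining libraries between 16.3 and 17.0 CPM. SNI libraries 49, 64, 65 and 70 held 56.5, 47.5, 50.7 and 30.3 CPM, so 3 of 4 lay above all sham libraries. The log2 fold change of 1.07 ± 0.239 was called (adjusted p = 0.00556). B10.D2 SNI libraries held 37.6, 25.6, 43.1, 20.7 and 25.5 CPM in 69, 76, 78, 89 and 90, against 21.2, 12.2, 14.3, 16.7 and 20.2 CPM in sham 58, 60, 67, 77 and 88. All but 89 were above every sham library, but the log2 fold change of 0.81 ± 0.249 missed the threshold (adjusted p = 0.0716). It passed without B10.D2 SNI 89 (0.93, adjusted p = 0.0438) or BALB/c sham 50 (0.77, adjusted p = 0.0498), and also with no filter on low counts (0.81, adjusted p = 0.00766), with no sex term (0.85, adjusted p = 0.0452) and with the strain fitted alone (0.78, adjusted p = 0.0498). The call in BALB/c was lost in males alone (0.97, adjusted p = 0.224).

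Cells other than neurons also express Arg1 and Anxa1, so the markers of such cells are set beside them. Summed macrophage markers were 67.6 to 167 CPM in BALB/c sham and 121 to 179 CPM in BALB/c SNI, with 3 of 8 called higher, and 134 to 151 CPM and 129 to 205 CPM in B10.D2 sham and SNI, with none called. Neutrophil and blood markers had 5 of 6 counted and were at 68.3 to 296 CPM (sham) and 135 to 406 CPM (SNI) in BALB/c mice and at 45 to 185 CPM (sham) and 56.7 to 133 CPM (SNI) in B10.D2 mice, with no call in either strain. Fibroblast markers, all 5 counted, were at 952 to 1360 CPM (sham) and 1120 to 1740 CPM (SNI) in BALB/c mice and at 1180 to 1230 CPM (sham) and 1120 to 1720 CPM (SNI) in B10.D2 mice, with 1 of 5 called higher in each strain. These ranges overlapped between sham and SNI in both strains, and their part in the values of Arg1 and Anxa1 was not tested. Markers of the remaining cell types had few calls. Of 7 satellite glia markers 2 were called higher in BALB/c and 1 in B10.D2, of 6 Schwann cell markers none in either strain, of 5 endothelial markers 1 higher in BALB/c and none in B10.D2, and of 5 muscle markers none in either.

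Vgf (chr5:137026392-137033351, plus strand), the neuropeptide precursor, gave no call in either strain, with wide spreads among animals. BALB/c sham libraries ranged from 20 to 34.4 CPM (median 26.7), and SNI libraries 49, 64, 65 and 70 held 29.6, 41.2, 35.5 and 53.9 CPM. Libraries 64, 65 and 70 exceeded every sham library, and the log2 fold change was 0.55 ± 0.221 (adjusted p = 0.129). With no filter on low counts it passed (0.54, adjusted p = 0.0445). In B10.D2 sham libraries 58, 60, 67, 77 and 88 held 32.9, 40.0, 23.7, 16.7 and 26.6 CPM and SNI libraries 69, 76, 78, 89 and 90 held 35.9, 19.3, 30.0, 29.1 and 44.3 CPM. The groups overlapped over most of their range, with a log2 fold change of 0.23 ± 0.223 (adjusted p = 0.670).

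Single libraries were low or high in several of the genes that rose. Among the 5 B10.D2 SNI libraries, number 76 was the lowest in 6 of the 7 genes called in that strain and in 7 of all 10. Its median log2 ratio to the sham mean over those 7 genes was 0.95, against 1.28 to 1.59 in the other 4 libraries. In BALB/c SNI the same median covered a narrower range, from 1.69 in library 70 to 1.93 in library 64. Among sham libraries, BALB/c sham 50 was the highest in 4 of the 7 genes called in BALB/c, with Sprr1a at 1.91 CPM, Ecel1 at 4.11 CPM, Gpr151 at 2.23 CPM and Anxa1 at 33.6 CPM, and its median log2 ratio was 0.48, where the other 5 sham libraries lay between -0.41 and 0.14. The summed neuron markers of library 76 were 6040 CPM, within the range of its group, and its macrophage markers were 171 CPM, the median of its group. BALB/c sham 50 had the highest summed muscle markers (1320 CPM, where the median of its group was 39.1 CPM) and blood markers (296 CPM) of the BALB/c sham libraries, and the part of these in its values was not tested.

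Without library 76 all 7 calls in B10.D2 were kept, with log2 fold changes of 5.23 for Sprr1a, 3.65 for Ecel1, 3.39 for Gpr151, 1.39 for Stmn4, 1.32 for Flrt3, 1.15 for Arg1 and 0.50 for Gap43. Without BALB/c sham 50 the 7 calls in BALB/c were kept too, with Sprr1a at 5.32 and Ecel1 at 4.01.

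**Figure D3:**
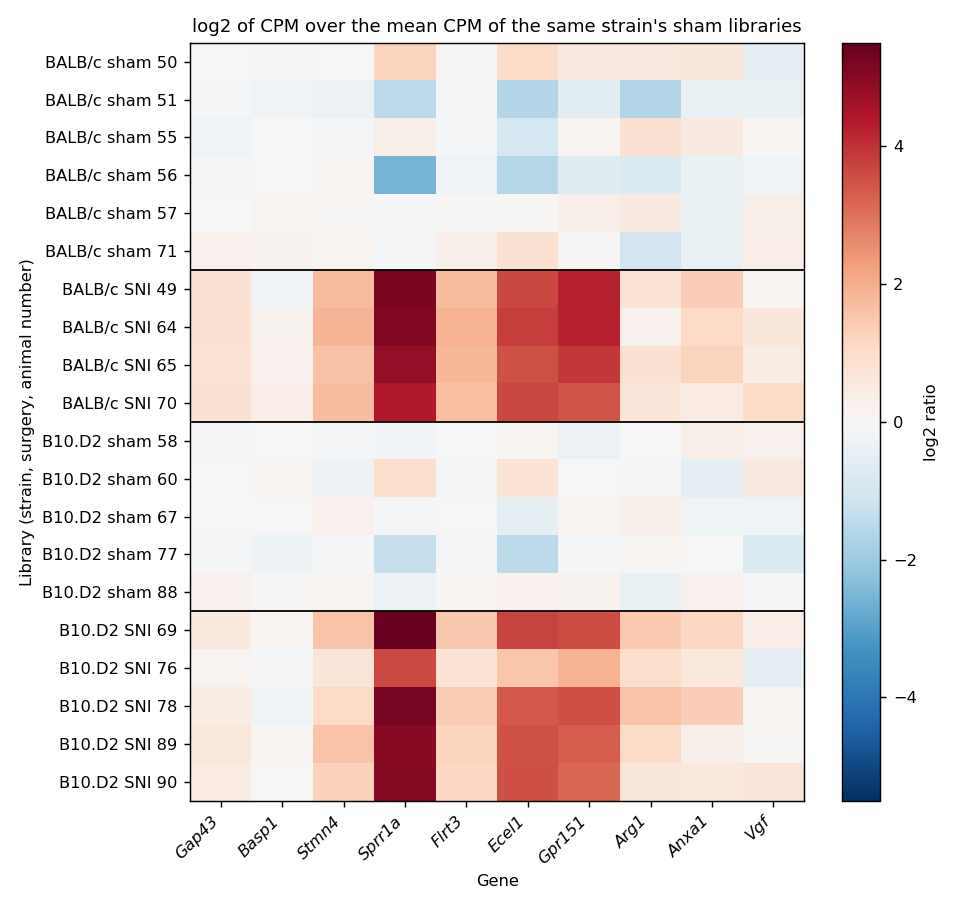
Heat map of the log2 ratio of each library's CPM to the mean CPM of the sham libraries of its own strain (blue below 0, red above 0), with the 10 genes as columns and the 20 mouse libraries as rows, divided by lines between groups. The columns of Sprr1a, Ecel1 and Gpr151 are the darkest in SNI, and the row of B10.D2 SNI 76 is paler than the 4 other SNI rows of that strain in Ecel1, Gpr151, Stmn4 and Flrt3.

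The 2 strains were then compared directly. Stmn4 was lower in B10.D2 than in BALB/c both in sham (6.67 ± 0.763 CPM in BALB/c, SD, n = 6, and 4.85 ± 0.680 CPM in B10.D2, SD, n = 5) and after SNI (22.04 ± 1.73 CPM, n = 4, and 11.7 ± 2.86 CPM, n = 5). All 5 B10.D2 SNI libraries lay under all 4 BALB/c SNI libraries, but how many of all features separate the strains in this way was not counted. The log2 difference, B10.D2 minus BALB/c, was -0.45 ± 0.141 in sham (adjusted p = 0.0241) and -0.91 ± 0.143 after SNI (adjusted p = 6.38e-05). In sham it was the only one of the 10 genes called, where 21.6% of all features were, and the call was lost without B10.D2 sham 58, 60 or 77 or BALB/c sham 56 or 71 (adjusted p = 0.0505 to 0.0688). Flrt3 after SNI was lower in B10.D2 as well, by a log2 difference of -0.34 ± 0.112 (adjusted p = 0.0358), which made 2 of 10 genes called after SNI beside 20.8% of all features. That call was lost without B10.D2 SNI 76 (-0.24, adjusted p = 0.0765), 89 or 90, or BALB/c SNI 49, 64 or 65. Differences after SNI for Ecel1 (-0.997, adjusted p = 0.0574), Gpr151 (-0.63, adjusted p = 0.0674), Arg1 (0.80, adjusted p = 0.0740), Anxa1 (-0.62, adjusted p = 0.0871) and Gap43 (-0.17, adjusted p = 0.110) did not pass, nor did those for Sprr1a (-0.56, adjusted p = 0.262), Vgf (-0.33, adjusted p = 0.362) and Basp1 (0.05, adjusted p = 0.785).

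Whether the response to SNI itself differed between strains was tested as an interaction. None of the 10 genes passed over all features tested, of which 0.0243% (6 features) did. Flrt3 (log2 difference of the fold changes, B10.D2 minus BALB/c, -0.58 ± 0.155, unadjusted p = 0.00133, adjusted p = 0.718), Gap43 (-0.35 ± 0.100, unadjusted p = 0.00225, adjusted p = 0.856) and Stmn4 (-0.45 ± 0.201, unadjusted p = 0.0348, adjusted p = 1) had an unadjusted p under 0.05 in this edgeR fit. In 8 of the 10 genes the fitted change was smaller in B10.D2, with Sprr1a (0.13) and Arg1 (0.43) on the other side of 0. These signs are not independent, as the genes share libraries and B10.D2 SNI 76 was the lowest of its group in 7 of them. DESeq2 also called none of the 10. The calls of Anxa1 in one strain and Arg1 in the other are thus not shown to differ between strains.

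Sex moved none of the 10 genes past the threshold. In the edgeR fit over both strains and surgeries, 0.243% of all features were called between females and males, and Gap43 alone of the 10 had an unadjusted p under 0.05, with a log2 difference, female minus male, of -0.13 (unadjusted p = 0.0212, adjusted p = 0.319). Group means of Gap43 were lower in females in every group, at 109 and 123 CPM (3 females and 3 males, sham) and 199.6 and 205 CPM (2 and 2, SNI) in BALB/c mice and 126 and 136 CPM (2 and 3, sham) and 171 and 189.9 CPM (3 and 2, SNI) in B10.D2 mice. The interaction of sex with injury called 0% of all features and none of the 10 genes, with no unadjusted p under 0.05 among them, and DESeq2 called none of the 10 in either test. Fitted within one sex at a time, Sprr1a, Flrt3, Ecel1 and Gpr151 were called higher in males and in females of both strains. Gap43 in B10.D2 was not called in females (0.43, adjusted p = 0.0775) or in males (0.48, adjusted p = 0.0819), Stmn4 in B10.D2 was not called in females (1.06, adjusted p = 0.0562), and Anxa1 in BALB/c was not called in males (0.97, adjusted p = 0.224). Arg1 in B10.D2 was called in neither sex (adjusted p = 0.285 in females and 0.516 in males). For Sprr1a, Flrt3, Ecel1 and Gpr151 the log2 fold changes in males and females were 4.58 and 5.26 (Sprr1a), 1.63 and 1.96 (Flrt3), 3.25 and 4.33 (Ecel1) and 3.86 and 4.10 (Gpr151) in BALB/c. In B10.D2 they were 4.77 and 5.52, 1.14 and 1.30, 3.12 and 4.06, and 3.28 and 3.13.

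In rat the same genes were measured after transection of the whole spinal nerve, at another time, in pooled animals and in polyadenylated RNA, so rat and mouse values stand side by side without a test. Of the 5 genes with counts, Ecel1, Sprr1a and Arg1 rose after SNT, beside 12.3% of all 13690 features tested called higher and 27.4% called in either direction, and Basp1 and Anxa1 did not pass. The median log2 fold change was 1.43 over the 5 genes and 0.0027 over all features. Ecel1 and Sprr1a did not overlap between groups, as was so for 12.2% of all features in that direction. The other members could not be compared. Gap43, Stmn4, Gpr151 and Vgf were listed at 0 in all 8 rat libraries and no row carried the symbol Flrt3. Of rat genes whose mouse namesake reached 5 CPM, 99.4% were listed at 0 where that namesake lies on mouse chromosome 16, as Gap43 does, 99.7% on chromosome 14 (Stmn4), 99.3% on chromosome 18 (Gpr151) and 83.4% on chromosome 5 (Vgf), against 0% on chromosome 15 (Basp1), 0.19% on chromosome 3 (Sprr1a), and 37.4% over all chromosomes. The 0 of these 4 genes is therefore no measure of their level. Markers listed at 0 in every rat library are likewise not read as absent, and rat marker sums cover the counted markers only.

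Ecel1 had the smallest adjusted p of the 5 genes in rat. Sham libraries 1 to 4 held 9.45, 12.5, 9.33 and 22.9 CPM and SNT libraries 1 to 4 held 50.7, 86.3, 66.98 and 80.5 CPM. Every SNT library was at least 2.22 times the highest sham library, and the log2 fold change was 2.39 ± 0.296 (adjusted p = 0.00996). For Sprr1a the sham libraries held 1.41, 1.40, 1.64 and 5.93 CPM and the SNT libraries held 6.26, 10.4, 11.1 and 12.0 CPM. Sham 4 nearly met SNT 1, and the log2 fold change was 1.92 ± 0.460 (adjusted p = 0.0171). Arg1 in sham was at 6.96, 7.75 and 7.62 CPM in libraries 1 to 3 and at 33.4 CPM in library 4, within the SNT values of 32.6, 34.4, 34.2 and 49.4 CPM. Its log2 fold change was 1.43 ± 0.478 (adjusted p = 0.0497, and 0.0506 with DESeq2). Without SNT 2, 3 or 4 or sham 1, 2 or 3 the call of Arg1 was lost, and without sham 3 that of Sprr1a as well (1.75, adjusted p = 0.0544), leaving Ecel1 alone.

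Basp1 held 103, 185, 134 and 202 CPM in the 4 rat sham libraries and 240.0, 225, 178 and 270.0 CPM in the SNT libraries, which overlapped (log2 fold change 0.55 ± 0.212, adjusted p = 0.0788). Anxa1 held 186, 95.5, 128 and 219 CPM in sham and 200.3, 251, 252 and 204 CPM in SNT (0.53 ± 0.231, adjusted p = 0.110). An assembled LncRNA that the study places opposite Anxa1, LncRNA466 (chr1:237907633-237910990, plus strand, rn6), held 0.497, 0.244, 0.427 and 1.17 CPM in sham and 1.07, 1.09, 1.22 and 1.64 CPM in SNT (1.08 ± 0.416, adjusted p = 0.0774). Sham 4 was the highest sham library for LncRNA466 and for all 5 genes, and SNT 1 the lowest SNT library for 4 of the 5. Without both libraries all 5 genes were called, at log2 fold changes of 2.91 (Sprr1a), 2.90 (Ecel1), 2.40 (Arg1), 0.79 (Anxa1) and 0.67 (Basp1). In that fit 43.9% of all features were called, against 27.4% with all libraries. As both were picked for lying nearest the other group, that fit favours larger changes by the choice itself. Leaving out sham 4 alone also gave 5 calls, beside 34.6% of all features. Neuron markers in rat had 4 of 8 counted, with Tubb3, Rbfox3 and Uchl1 listed at 0 in every library, and 3 of the 4 were called lower. Their sums overlapped, at 4080 to 5760 CPM in sham and 3710 to 5850 CPM in SNT. Satellite glia markers (3 of 7 counted) were 8770 to 12900 CPM in sham and 7430 to 9460 CPM in SNT, with 1 called higher and 1 lower. Summed macrophage markers, with 4 of 8 counted and Aif1, Cd68, Csf1r and Mrc1 at 0, were 65 to 175 CPM in sham and 172 to 247 CPM in SNT, with 1 of 4 called higher, and fibroblast markers (3 of 5 counted) were 882 to 2010 CPM and 1860 to 2710 CPM, with 1 of 3 called higher. Schwann cell markers (3 of 6 counted) were 1100 to 1660 CPM and 1290 to 2660 CPM, with 1 of 3 called higher. Endothelial markers, with 1 of 5 counted, did not overlap, at 37.8 to 51.3 CPM in sham and 53.2 to 79.8 CPM in SNT, and that marker was called higher. The part of these in the changes of the 5 genes was not tested.

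**Figure D4:**
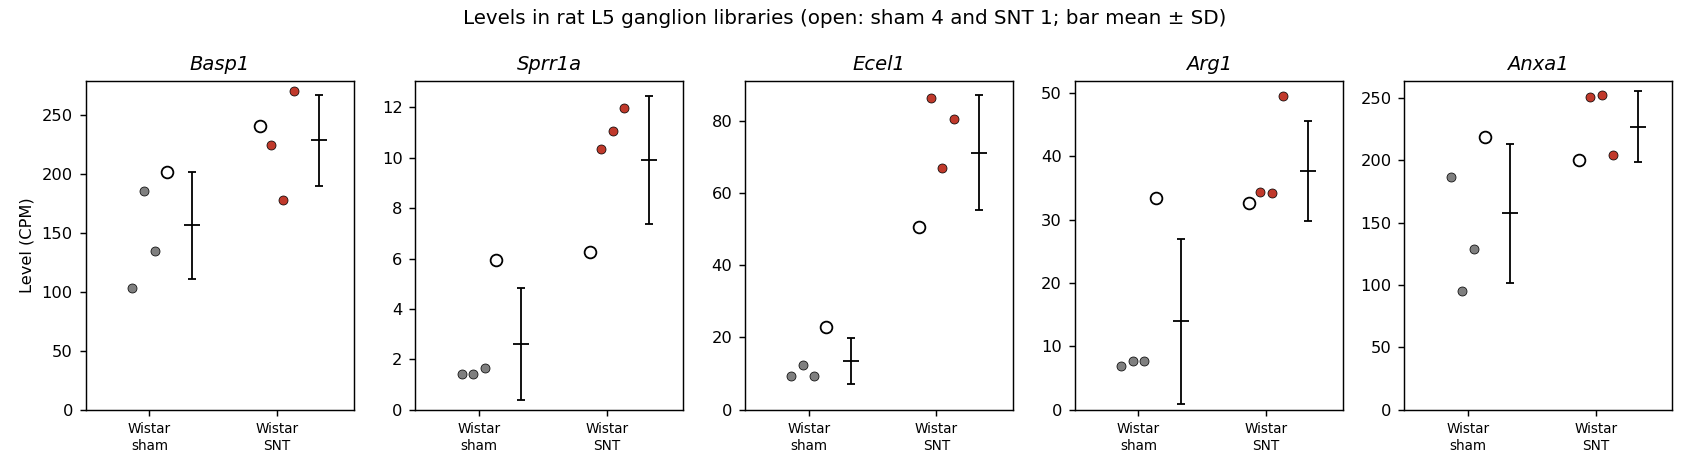
Level in CPM (linear axis from 0) of the 5 genes with counts in rat, by library of pooled L5 ganglia, with open circles for sham 4 and SNT 1 and a bar for mean ± SD (n = 4). Sham 4 is the highest sham library in all 5 panels, and for Arg1 it lies at 33.4 CPM among the SNT libraries.

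Genes of the same families and pathways were counted next, leaving the 10 genes themselves aside. For comparison, 4.82% (BALB/c), 2.1% (B10.D2) and 12.3% (rat) of all features tested were called higher. Called lower were 1202 (BALB/c) and 611 (B10.D2) of 24685 features, and 2073 of 13690 in rat. Low counts in the short lists below are not read as results about a family. Of the other growth cone phosphoproteins, Marcks and Marcksl1, both rose in BALB/c (log2 fold changes 0.45, adjusted p = 0.0143, and 0.41, adjusted p = 0.0187) and neither was called in B10.D2 (0.18 and 0.21), while Marcksl1 rose in rat by 0.90 (adjusted p = 0.0114). Of the other 3 stathmins 1 was called higher in BALB/c and none in B10.D2. That one was Stmn2, also known as SCG10 and far more abundant than Stmn4, at 933 ± 101 CPM in BALB/c sham and 1140 ± 82.0 CPM in SNI (0.29, adjusted p = 0.0436), with 0.22 in B10.D2 (adjusted p = 0.200). Of the 9 small proline-rich genes 6 had no count in any mouse library. Sprr1b, the closest namesake of Sprr1a, had no count in any sham library of either strain, 12 to 17 counts in each BALB/c SNI library (0.387 ± 0.0416 CPM, SD, n = 4) and 1 to 5 counts in each B10.D2 SNI library (0.101 ± 0.0473 CPM, n = 5). Against the level of 3 counts in a BALB/c sham library (0.0895 CPM) that is at least 4.32-fold higher in BALB/c SNI. In B10.D2 SNI the mean was 1.11 times the level of 3 counts (0.0905 CPM), too close to it for a fold to be given. With no count in sham, Sprr1b passed the filter on low counts only through its SNI libraries, so any call could only be higher. The BALB/c fit called it at an adjusted p of 7.86e-05. Its call in the other strain (adjusted p = 0.0114) rests on 1 to 5 counts a library and is not read as a separate result.

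Among 9 binding partners and relatives of FLRT3 (FLRT proteins, latrophilins and UNC5 receptors) none was called higher. Over all features 4.82% (BALB/c) and 2.1% (B10.D2) were called higher, so none among so few genes says nothing about the family. Of the 9, 3 were called lower in BALB/c mice and 1 in B10.D2 mice, beside 1202 and 611 of all 24685 features. Adgrl2, a latrophilin, was lower in both (-0.24, adjusted p = 0.00408, and -0.23, adjusted p = 0.00834). Among the 6 endopeptidases related to ECEL1, 1 was called in BALB/c, the neutral endopeptidase gene Mme, which fell by 0.38 on the log2 scale (adjusted p = 0.0410), and none in B10.D2 (Mme -0.24, adjusted p = 0.283), whereas in rat Mme was called higher (0.97, adjusted p = 0.0217). Among 14 other enzymes, transporters and regulators of arginine and polyamine metabolism, 1 was called higher in BALB/c (Sat1, a polyamine acetyltransferase, 0.22, adjusted p = 0.0430) and 1 lower (Nos1, neuronal nitric oxide synthase, which fell by 0.32, adjusted p = 0.0439). None was called in B10.D2.

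Of 14 other annexins, annexin-binding S100 proteins and formyl peptide receptors tested, 3 rose in BALB/c and 2 in B10.D2, with none lower. Anxa10 was 0.0653 ± 0.0445 CPM in BALB/c sham and 1.78 ± 0.852 CPM in SNI (log2 fold change 4.70, adjusted p = 9e-07). In B10.D2 it was 0.113 ± 0.0650 and 1.92 ± 0.720 CPM (4.05, adjusted p = 1.21e-05). Its sham levels lay near the 0.0716 to 0.1 CPM of 3 counts, so these folds are imprecise and not set against that of Anxa1. Anxa10 passed the filter on low counts only through its SNI libraries. S100a11, whose product binds annexins, rose in both strains (0.88, adjusted p = 0.000648, and 0.70, adjusted p = 0.00946) and in rat (0.82, adjusted p = 0.0104). Among 12 other granins and enzymes that process prohormones, 1 was called higher and 3 lower in BALB/c, and 1 was called lower in B10.D2. Chga, the granin chromogranin A, fell by 0.32 on the log2 scale in BALB/c (adjusted p = 0.00225) and by 0.31 in B10.D2 (adjusted p = 0.00602). In rat it fell by 1.58 (adjusted p = 0.0207). There 5 of 10 genes of the list tested were called lower and 1 higher, beside 2073 of all 13690 features lower and 12.3% higher.

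A broader list held 36 other regeneration-associated genes. Of 35 tested, 23 were called higher and none lower in BALB/c, 14 higher and 1 lower in B10.D2, and in rat 13 of 20 were called higher, with medians of 0.46, 0.23 and 0.93. Over all features 4.82%, 2.1% and 12.3% were called higher. The list was chosen with earlier results of these data known. Gal, the neuropeptide galanin, went from 8.15 ± 3.49 to 145 ± 38.8 CPM in BALB/c (log2 fold change 4.18, adjusted p = 1.98e-09) and from 6.92 ± 1.499 to 23.9 ± 5.40 CPM in B10.D2 (1.80, adjusted p = 0.000216). Its interaction was called, with a log2 difference of -2.37 ± 0.358 (adjusted p = 0.0140), unlike that of any of the 10 genes. The transcription factor Atf3, which acts upstream of many effector genes, rose by 3.24 and 2.69 (adjusted p = 3.1e-07 and 1.79e-05), and the neuropeptide genes Npy (4.72 and 4.28) and Nts (3.01 and 2.77), the adhesion gene Chl1 (1.02 and 0.66) and the macrophage growth factor gene Csf1 (0.87 and 0.59) were called in both strains. In rat Gal (1.92), Chl1 (1.20) and Csf1 (1.23) were also called, and Nts was not (0.07, adjusted p = 0.859). Of the 36 genes, 15 were listed at 0 in rat. Atf3 and Npy were not among the 20 tested there, so their change in rat is not known.

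**Figure D5:**
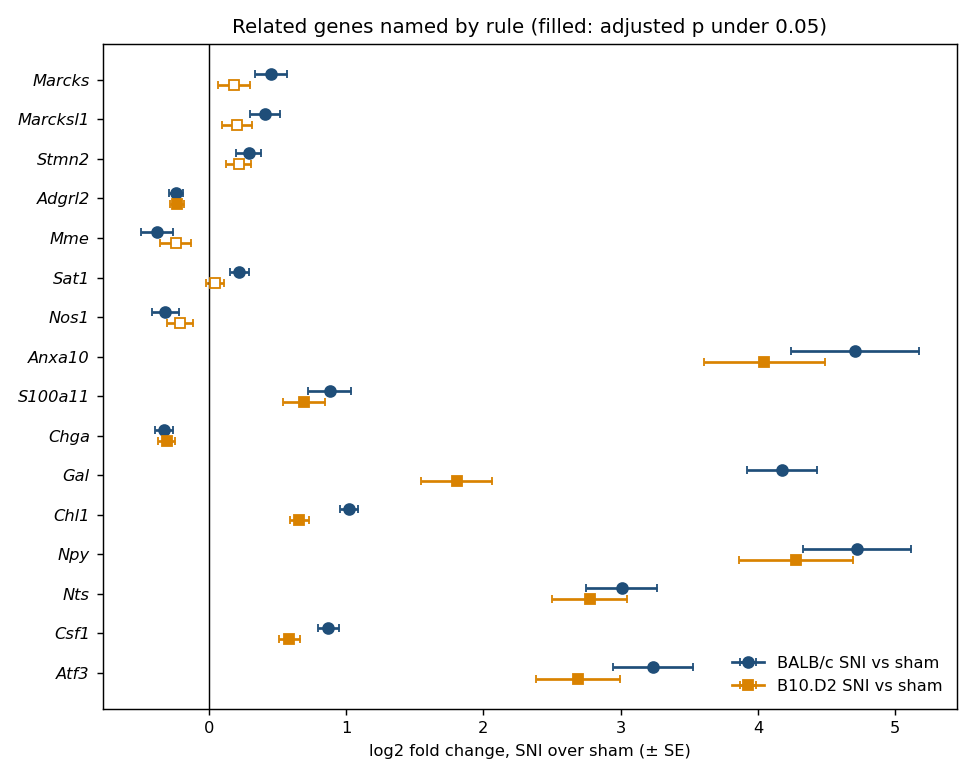
Log2 fold change of SNI over sham ± SE in BALB/c and B10.D2 for the genes named from the family and pathway lists, with filled symbols at an adjusted p under 0.05. Gal lies at 4.18 (BALB/c) and 1.80 (B10.D2), and Adgrl2, Mme, Nos1 and Chga lie below 0 in both strains.

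The pattern shared by the 10 genes over the mouse libraries was set against all other features. Levels as log2(CPM + 1) were taken after removing strain and sex, the 10 genes were each standardised and averaged, and each of 18583 other features averaging 1 CPM or more was correlated with that average over the 20 libraries. The 5 most alike were Nts (Pearson r = 0.987), Adam8 (0.983), Cckbr (0.983), Npy (0.977) and Lipn (0.977). The neuropeptide neurotensin is encoded by Nts, a membrane metalloprotease by Adam8 and the cholecystokinin B receptor by Cckbr. The r values come from 20 libraries that fall into sham and SNI, and so describe mainly that step. Among the 10 themselves, the correlation with the mean of the other 9 was 0.948 to 0.986 for Gap43, Stmn4, Sprr1a, Flrt3, Ecel1 and Gpr151, 0.749 for Anxa1, 0.698 for Arg1, 0.602 for Vgf and 0.371 for Basp1. Adam8 rose from 12.7 ± 1.37 to 32.03 ± 1.47 CPM in BALB/c and from 11.5 ± 0.923 to 23.1 ± 3.92 CPM in B10.D2, and Cckbr from 0.988 ± 0.720 to 12.7 ± 1.84 CPM and from 0.506 ± 0.387 to 7.79 ± 3.02 CPM. Lipn, a lipase gene, was at 0.134 ± 0.119 and 3.57 ± 0.299 CPM in BALB/c and at 0.0986 ± 0.0310 and 2.08 ± 0.847 CPM in B10.D2. All 5 were called in both strains, which follows largely from how they were picked and is no separate support. Cckbr and Lipn, under 1 CPM on average in sham, reached that level only through their SNI libraries.

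No LncRNA assembled by the authors overlapped any of the 10 mouse genes on the opposite strand. The nearest, LncRNA4857 (chr5:137013809-137023975, plus strand, 12 exons), lies 2416 bases from Vgf on the same strand, and it is named here after its values were seen. It was at 0.136 ± 0.0687 CPM in BALB/c sham (SD, n = 6) and 1.31 ± 0.293 CPM in B10.D2 sham (n = 5), a log2 difference of 3.22 ± 0.301 (adjusted p = 4.37e-08), whereas Vgf itself did not pass between the strains in sham (27.1 ± 6.49 and 27.98 ± 8.88 CPM, log2 difference -0.0079, adjusted p = 0.987). LncRNA4857 was not called after SNI (0.81, adjusted p = 0.229, in BALB/c and 0.31, adjusted p = 0.574, in B10.D2). The annotated long non-coding RNA 1500015L24Rik, which spans Anxa1 on the opposite strand, also named after its values were seen, had no count in any sham library, 4 to 8 counts in each BALB/c SNI library and 0 to 2 in each B10.D2 SNI library, and was too low to be tested.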

How the data were processed

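The authors sequenced RNA depleted of ribosomal RNA (mouse) or polyadenylated RNA (rat) as stranded read pairs, aligned them with STAR to mm10 or rn6 and counted read pairs with HTSeq over Ensembl genes and assembled LncRNAs. Versions of these tools are not given in the sources used here. The deposited tables hold raw counts per feature. The authors' DESeq2 result tables (mean, log2 fold change, standard error, Wald score and p-values) were used for gene symbols alone.

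Features passing filterByExpr were fitted with edgeR 4.0.16 (R 4.3.3) after TMM normalization, with sex, strain, surgery and strain by surgery in mouse and surgery alone in rat, and tested with the two-sided quasi-likelihood F test. Levels in CPM used TMM-scaled library totals. P-values were adjusted by Benjamini-Hochberg over all features, with a threshold of 0.05. SEs were derived from the fold change and F (its ratio to the root of F). DESeq2 1.42.0, other size factors and filters, single sexes and left-out libraries were alternatives. Exon lengths and positions are from GENCODE M21, which matched 49326 of 49585 identifiers. Each mouse library is 1 animal, and each rat library pools 3 rats. The genes and lists were chosen with earlier results of these data known. The text names the 10 genes, from each list up to 3 others (6 for other regeneration-associated genes) with the smallest adjusted p in BALB/c among those called in both strains, or failing that up to 2 called in either, and the 5 features most alike in pattern. Floors of 3 counts cover counting error only. Mouse samples without a count column were left out.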

Additional observations from a re-analysis of the deposited data

Results flagged for a closer look

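In 6 cases a single library stood apart from its group by Dixon's ratio of the gap to the range, among 50 combinations of gene and group tested, of which chance would flag about 1 in 20. In mouse, Ecel1 in B10.D2 SNI 76 was at 3.78 CPM, with the next library at 13.7 CPM. Gap43 in BALB/c SNI 65 was at 193 CPM below the next at 204 CPM, a group with a very narrow range, and Gap43 in B10.D2 sham 88 was at 154 CPM above the next at 130 CPM. In rat, Sprr1a in sham 4 was at 5.93 CPM, with the other sham libraries at 1.64 CPM or less, and Arg1 in the same library was at 33.4 CPM, with the next at 7.75 CPM. Arg1 in SNT 4 was at 49.4 CPM, with the next at 34.4 CPM. Without B10.D2 SNI 76 the log2 fold change of Ecel1 in B10.D2 was 3.65 instead of 3.47. Without rat sham 4 those of Sprr1a and Arg1 were 2.75 and 2.35 instead of 1.92 and 1.43. Leaving out that library brought Basp1 (0.71) and Anxa1 (0.74) past the threshold too. The cause of these departures was not tested.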

How the results depend on the processing

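The calls of Sprr1a, Flrt3, Ecel1 and Gpr151 after SNI held in both strains under every alternative in which they were tested. Over left-out libraries 7 to 8 of the 10 genes were called in BALB/c and 6 to 8 in B10.D2, 1 to 5 of 5 in rat, 0 (without B10.D2 sham 60 or BALB/c sham 56) to 3 (without B10.D2 SNI 76) of 10 between strains in sham and 1 to 4 after SNI. With females alone 4 were called in B10.D2, beside 0.746% of all features. Between strains, females alone gave 0 in sham and 1 after SNI, beside 10.4% and 9.39% of all features. Males alone gave 0 and 1, beside 12.4% and 9.07%, and no filter on low counts gave 3 and 5, beside 13.1% and 12.6%. Without rat sham 4 and SNT 1, each the library of its group nearest the other group, all 5 were called, beside 43.9% of all features. No gene was called for the interaction or for sex under any alternative. Basp1 in B10.D2 turned to -0.0043 without a sex term and lay between -0.0673 and 0.0348 over left-out libraries. The cause of these shifts was not tested.

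With the title number as replicate block, 3 of 5 rat genes were again called (Sprr1a 2.16, Ecel1 2.47, Arg1 1.77) and 2558 features against 3753 without it. In their deviations from the group means, libraries of the same number correlated at -0.293 to 0.05 and those of different numbers at -0.557 to 0.487. With 4 libraries a group this cannot decide whether the numbers mark pairs. The main fit did not use them.

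Counts over all features ranged from 415 (males only) to 2794 (DESeq2) around 2392 in BALB/c, 95 (males only) to 1449 (DESeq2) around 1130 in B10.D2, 0 to 10 around 6 for the interaction, 2611 to 5629 around 5322 and 2250 to 5436 around 5144 between strains in sham and SNI, 35 to 240 around 60 for sex, 0 to 2 around 0 for sex by injury, and 1483 (without sham 3) to 6100 (without sham 4 and SNT 1) around 3753 in rat. Arg1 in mouse rests on at most 36 counts a library.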
